A study of Mus musculus with 670 samples.

Results

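The genes described here encode the nuclear subunits of oxidative phosphorylation, read in single cells sorted from mouse long bones as skeletal stem cells. They were chosen by name alone. Of 55604 gene rows, 110 carried the symbol stem of a complex I, II, III, IV or V subunit (Ndufa, Ndufb, Ndufc, Ndufs, Ndufv, Sdha to Sdhd, Uqcr, Cox4 to Cox8, Atp5), and 93 remained without 9 rows marked as pseudogenes by the ending -ps and 8 rows of Ndufaf assembly factors. A further 4 rows repeat a symbol (Uqcrc1, Ndufs3, Atp5a1 and Atp5o) and were set aside, which left 89 genes: 41 of complex I, 4 of complex II, 8 of complex III, 19 of complex IV and 17 of complex V. The annotation lists 85 of them as protein coding and 4, Ndufs6b, Ndufb4c, Ndufa11b and Cox6c2, as processed pseudogenes, whose reads cannot be told with certainty from those of their parent genes.

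All cells came from untreated male mice and were sequenced by SmartSeq2, a full-length method without molecular identifiers, directly after sorting. Strain and animals are not given in the sources used here, so each age was taken as 1 sample and no p-value was computed. Postnatal day 3 had 1 plate (plate 9), 2 months had 3 plates (plates 1, 3 and 4) and 24 months had 3 plates (plates 2, 5 and 12). The labels put plates 9, 2 and 12 in batch 3, plate 5 in batch 2, and plates 4, 1 and 3 in batches 1, 4 and 5, so age and batch cannot be told apart for 2 months. Wells entered when 1000 or more genes and 50000 or more gene reads were found and the mitochondrial genome gave less than 20% of the reads. That left 68 cells on plate 9, then 15, 70 and 69 cells on plates 1, 3 and 4, and 5 cells on each of plates 2, 5 and 12, of 95 or 96 wells a plate. Kept cells held 62919 to 5994911 gene reads, with medians of 1100488, 677688 and 2733865 at the 3 ages, and no index pair was shared by wells.

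Cd200, a surface protein by which this cell is usually sorted, had a read in 16.2%, 27.3% and 46.7% of cells at the 3 ages after a random draw of 50000 reads from every cell, called thinning below. Itgav, the integrin used beside it, had one in 13.2%, 8.44% and 13.3%, and none on plate 1. Tek, an endothelial receptor used for exclusion, was at 0 in every plate, and Ptprc, the pan-leukocyte marker, reached at most 1.58 CPM (reads of the gene scaled to a common total per plate). Of other markers used for exclusion, Thy1 did not exceed 0.0208 CPM. Enpep and Eng reached 20.1 and 5.02 CPM on plate 9, seen in 1 cell each there, and at most 0.0832 and 0.0707 CPM on the other plates. The ages differed widely in their lineage markers. The summed CPM of 8 chondrocyte markers was 75600 at day 3, 60684 to 81891 at 2 months and 2858 to 11599 at 24 months, where Col9a1, Cnmd, Matn3 and Hapln1 were at 0. The summed CPM of 8 marrow stroma markers was 452.3, 53.3 to 354.6 and 4989 to 23319. This sum came mostly from Cxcl12 on plate 2 (19961 CPM) and from Ebf1 on plate 12 (4759 CPM). Cxcl12, Lepr, Kitl, Adipoq, Ebf3 and Vcam1 were at 0 on plate 12. Of the 8 markers 1, Ebf1, was higher at 24 than at 2 months by the rule given below, beside 1.56% of all genes, and Foxc1 had a lower mean. The sum of 8 fibroblast markers was 5933, 818.7 to 4402 and 5162 to 14137 CPM, at 24 months mostly from Dcn. The first 2 sums move beside both comparisons with 24 months, and the fibroblast sum beside that of 24 and 2 months. Day 3 lay within the 2-month range for chondrocyte markers, but 6 of 7 tested fibroblast markers were higher there than at 2 months by the rule given below, among them Postn (2704 against 0.0485, 18.8 and 3.12 CPM) and Col14a1 (in 45.6% against 0% of cells), and of 8 osteoblast markers 1 was higher and 5 lower. Of all genes tested, 28.1% were higher at day 3 than at 2 months and 10.1% lower. The part of these markers in the comparisons was not tested.

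Oxidative phosphorylation passes electrons from NADH through complex I, or from succinate through complex II, to ubiquinone, then through complex III and cytochrome c to complex IV, where oxygen is reduced. Complexes I, III and IV pump protons across the inner mitochondrial membrane, and complex V, the ATP synthase, uses the gradient. Complex II is encoded in the nucleus alone, and the other complexes also hold subunits encoded by mitochondrial DNA. Cartilage cells live in poorly perfused tissue and are known for strong reliance on glycolysis, whereas bone-forming cells use both routes.

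The nuclear subunits together made up a larger part of the reads at 24 months than at 2 months. Reads were summed over the kept cells of a plate and expressed as CPM, and an age was taken as the mean of its plates. The 89 genes summed to 5562 CPM on the day 3 plate, to 5631, 4169 and 4828 CPM on plates 1, 3 and 4, and to 6899, 6878 and 8041 CPM on plates 2, 5 and 12. Each 24-month plate was above each 2-month plate and above the day 3 plate. The means were 4876 ± 733 CPM at 2 months and 7273 ± 666 CPM at 24 months (SD, n = 3 plates each), a difference of 0.58 on the log2 scale with 1 CPM added. Day 3 lay within the range of the 2-month plates, 0.19 above their mean on the log2 scale. Within batch 3, plates 2 and 12 were 0.43 above plate 9.

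This sum rested on few cells at 24 months, and on plate 5 largely on 1 gene. Sdha made up 31.8% of the subunit reads there, against at most 14.5% for any gene on another plate. Without Sdha, plate 5 would lie below plate 1. One cell held 49.4%, 35% and 27.5% of the subunit reads on plates 2, 5 and 12, against 4.53% on plate 9 and 6.63% and 5.34% on plates 3 and 4; plate 1, with 15 cells, had 30.3%. Without the cell richest in these reads on every plate, the 24-month plates had 4874, 5447 and 7330 CPM and the 2-month plates 4745, 4009 and 4742 CPM, and the difference was 0.39; plate 9 then had 5466 CPM, above plates 2 and 5. With edgeR's TMM factors the ranges overlapped, with plate 1 at 7875 CPM beside 6739, 6111 and 6786 CPM at 24 months, and the difference was 0.23. The same factors moved the median log2 fold of all genes for 24 against 2 months from -1.56 to -1.92, and turned the summed difference of day 3 against 2 months from 0.19 to -0.03.

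**Figure D1:**
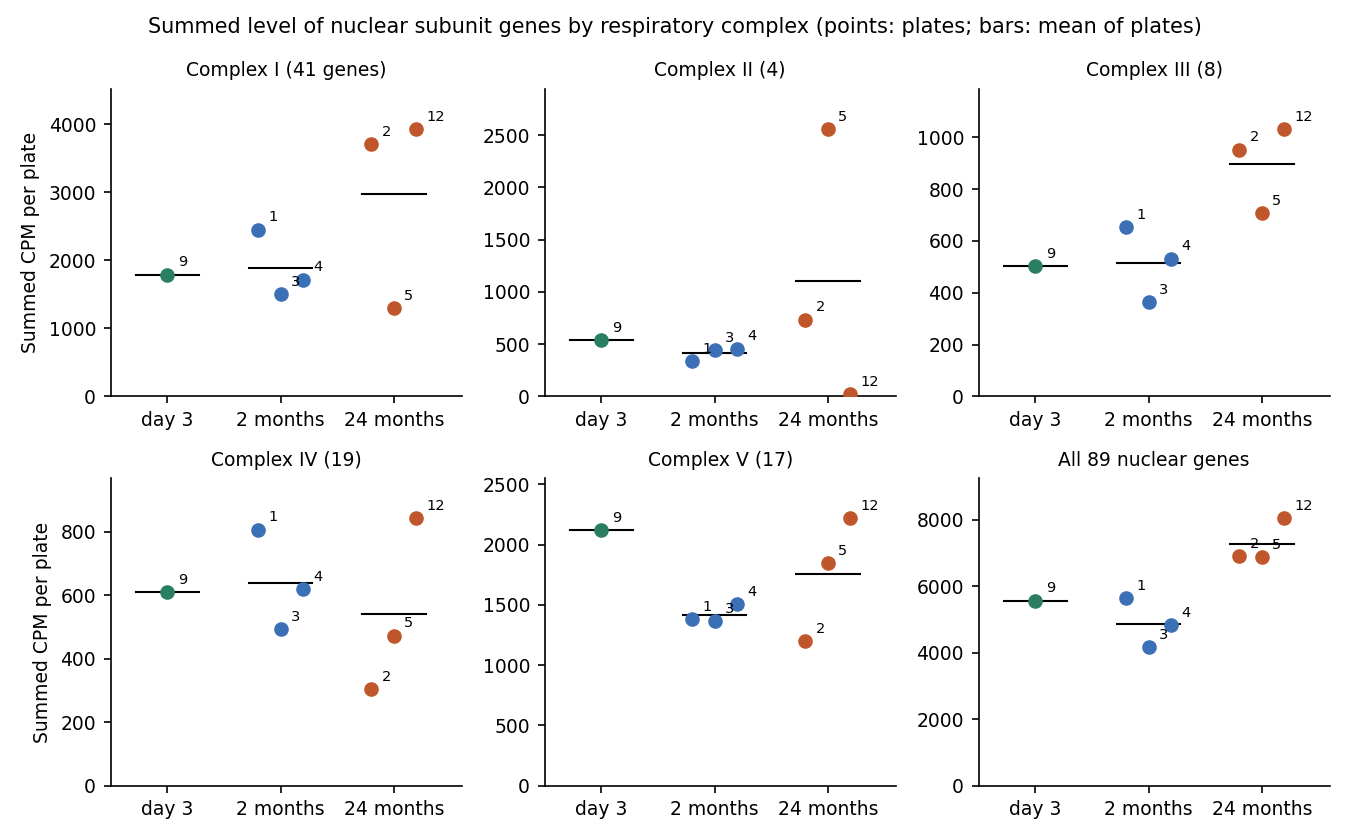
Summed CPM (vertical axes, linear, from 0) of the nuclear subunit genes of each complex and of all 89 genes, by age (horizontal axes). Points are plates with their numbers and bars are the mean of an age's plates. The 24-month plates lie above the 2-month plates for complex III and for all genes, and complex V of day 3, at 2121 CPM, lies above every 2-month plate. On each 24-month plate 1 cell and 1 gene gave most of the complex III reads.

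The complexes did not share this order. Genes were placed by symbol stem, so Ndufa4, now counted with complex IV, and its relative Ndufa4l2 stand in complex I. Ndufa4l2 made up 26.9% of the complex I sum on plate 2, more than the complex IV sum of that plate. The low complex IV value of plate 2 depends on this placement. Complex I, the NADH dehydrogenase, had 1793 CPM at day 3, 2455, 1504 and 1717 CPM at 2 months, and 3709, 1299 and 3932 CPM at 24 months, so plate 5 was below every other plate. Complex II, succinate dehydrogenase, had 535.2 CPM at day 3, 337.3, 443.6 and 457.6 CPM at 2 months, and 733.9, 2557 and 19.9 CPM at 24 months. The 24-month plates thus held both the highest and the lowest complex II values of the study. Complex III, the cytochrome bc1 complex, had 503.9 CPM at day 3, 652.7, 363.7 and 532.1 CPM at 2 months, and 952.2, 707.0 and 1032 CPM at 24 months, with no overlap between 2 and 24 months. On plates 2, 5 and 12, 1 cell held 54.1%, 65.6% and 56% of its reads. Uqcrc1 made up 86.7% and 66.2% of the sum on plates 2 and 5, and Uqcrfs1 69% on plate 12. By themselves these 2 genes overlapped between 2 and 24 months. Complex IV, cytochrome c oxidase, had 609.2 CPM at day 3, 805.7, 493.0 and 618.6 CPM at 2 months, and 304.7, 471.8 and 841.5 CPM at 24 months, with full overlap. Complex V was the largest share at day 3: 2121 CPM, against 1381, 1365 and 1503 CPM at 2 months and 1199, 1843 and 2217 CPM at 24 months. Its day 3 value exceeded the 2-month mean of 1416 ± 75.6 CPM (SD, n = 3 plates) by 0.58 on the log2 scale.

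Subunits encoded by mitochondrial DNA were lower at day 3 than at 2 months. All 13 of them summed to 4764 CPM at day 3, 9090, 9231 and 10795 CPM at 2 months, and 9877, 8822 and 1726 CPM at 24 months. Of the 10 with at least 10 CPM, 7 were lower at day 3 by the rule given below and 0 higher, beside 10.1% and 28.1% of all genes. Among the 7 were mt-Atp6 (237.7 against 948.6, 769.6 and 1042 CPM), a complex V subunit, and mt-Cytb (707.4 against 1880, 1787 and 2428 CPM), the complex III subunit. The ratio of the nuclear to the mitochondrially encoded sum was 1.17 on plate 9, 0.619, 0.452 and 0.447 at 2 months, and 0.698, 0.78 and 4.66 at 24 months. Plate 12 stood apart from plates 2 and 5 in this ratio, and 1 cell held 42.5% of its mitochondrially encoded subunit reads.

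Within a cell, more of these genes were seen at day 3 than at either later age. At 50000 reads per cell, a day 3 cell held reads of 14 to 58 of the 89 genes, with a median of 30. Cells of plates 1, 3 and 4 held 0 to 36, 3 to 44 and 1 to 48, with medians of 9, 16 and 20. Cells of plates 2, 5 and 12 held 10 to 36, 13 to 25 and 14 to 25, with medians of 13, 16 and 23. The medians of plates 2 and 5 lay within the 2-month range, that of plate 12 above it, and all were below day 3. Before thinning the medians were 39 at day 3, 12, 21.5 and 24 at 2 months, and 14, 19 and 26 at 24 months. At least 1 gene of all 5 complexes was seen in 54 of 68 cells at day 3 (79.4%, exact 95% binomial interval 67.9 to 88.3), in 35.7% of the 2-month cells (28.2 to 43.8) and in 6 of 15 at 24 months (40%, 16.3 to 67.7). Complex II was the one most often unseen: 11 of 68 cells at day 3 and 7 of 15 at 24 months lacked a read of all 4 of its genes. Intervals here cover counting error only.

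Relative to everything else detected, 2-month cells had the fewest. All genes detected per cell at that depth had a median of 1756 at day 3, 1109, 1283 and 1279 on the 2-month plates and 791, 832 and 931 on the 24-month plates. Per 100 genes detected, the median cell had 1.78 subunit genes at day 3, 1.26, 1.29 and 1.37 at 2 months, and 1.7, 1.79 and 2.11 at 24 months, with no overlap between 2 and 24 months. The share of a cell's reads in the 89 genes had the same order: a median of 0.544% at day 3, 0.357%, 0.399% and 0.445% at 2 months, and 0.498%, 0.569% and 0.743% at 24 months.

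**Figure D2:**
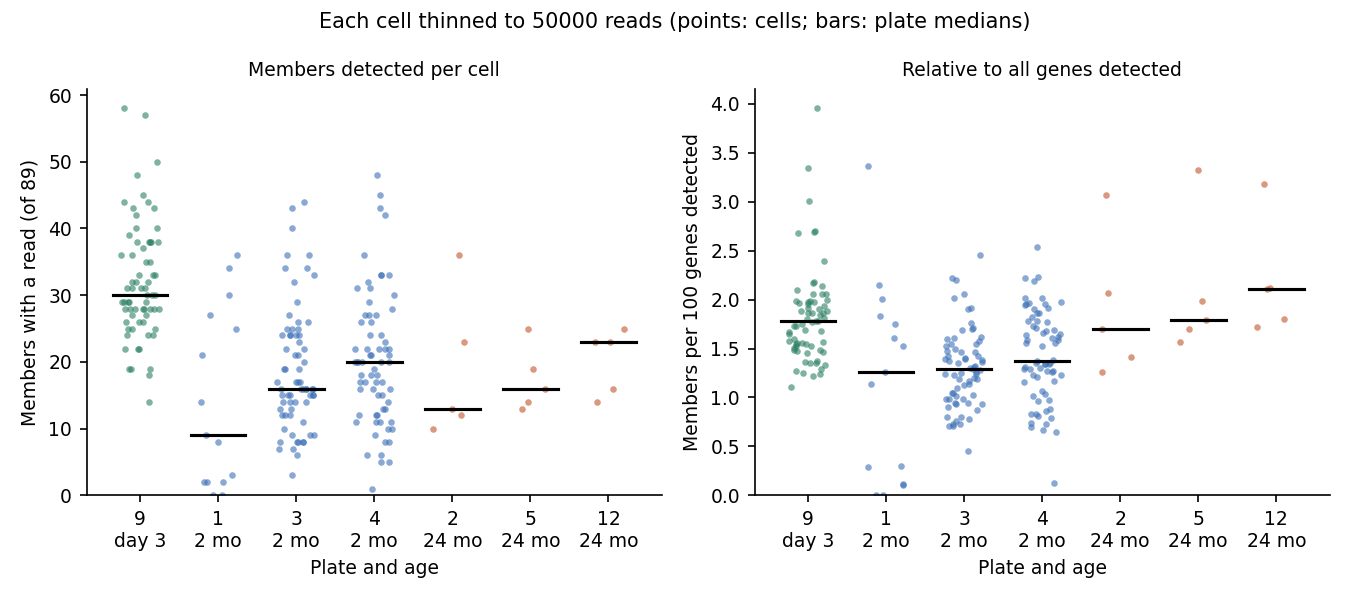
Left, the number of the 89 genes with a read in each cell; right, the same number per 100 genes detected (vertical axes), by plate and age (horizontal axes), with every cell thinned to 50000 reads. Points are cells and bars are plate medians; the day 3 median is 30 genes on the left, and on the right the 2-month medians of 1.26 to 1.37 lie below those of both other ages.

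Within a plate, cells with more genes in all tended to show more of these genes. Over the 68 cells of plate 9, Spearman's rho between subunit genes and all genes detected was 0.56, and it was 0.84 over 70 cells of plate 3 and 0.75 over 69 cells of plate 4; these counts share their cells and reads. On plate 1, with 15 cells, it was 0.35, against 0.62 with a cell's reads. The share of chondrocyte marker reads had a rho with subunit genes of -0.22, 0.34, 0.42 and 0.55 on plates 9, 3, 4 and 1. Complex I and complex V genes per cell had a rho of 0.52, 0.60 and 0.64 on plates 9, 3 and 4 and 0.90 on plate 1, and complex II and complex IV -0.07, 0.39, 0.25 and 0.38. The share of reads in nuclear subunits and the mitochondrial share had a rho of -0.12, -0.20, 0.01 and -0.01.

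Gene by gene, detection at day 3 was higher almost throughout. Of 78 genes seen in at least 10% of cells of either age, 73 were found in a larger share of day 3 cells than on any 2-month plate, and 0 in a smaller one. Of all genes tested this way, 69.2% lay above and 7.01% below. The median difference was 16.1 percentage points for the subunit genes and 7.39 for all genes. All tested genes of complexes II (4 of 4), III (8 of 8), IV (11 of 11) and V (16 of 16) were among the 73, with 34 of 39 of complex I. The complex I genes not among them were Ndufb2, Ndufs3, Ndufa1, Ndufs1 and Ndufa3, named after their values were seen. With at least 2 reads required, 61 of 76 genes were above and 2 below, beside 71.4% and 6.37% of all genes.

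Cox4i1, the ubiquitous form of a core regulatory subunit of complex IV (chr8:120668222-120674207, plus strand, GRCm38), was seen in 86.8% of day 3 cells (76.4 to 93.8) and in 33.3%, 64.3% and 49.3% of cells on plates 1, 3 and 4. Atp5a1, the alpha subunit of the ATP synthase's catalytic head, was seen in 73.5% (61.4 to 83.5) against 20%, 44.3% and 40.6%. Sdhd, one of the membrane anchors of complex II, was seen in 45.6% (33.5 to 58.1) against 0%, 7.14% and 15.9%. These shares were apart from every 2-month plate. Ndufs1, the largest iron-sulfur subunit of complex I, was seen in only 7.35% of day 3 cells against 0%, 11.4% and 18.8%, within the 2-month range.

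**Figure D3:**
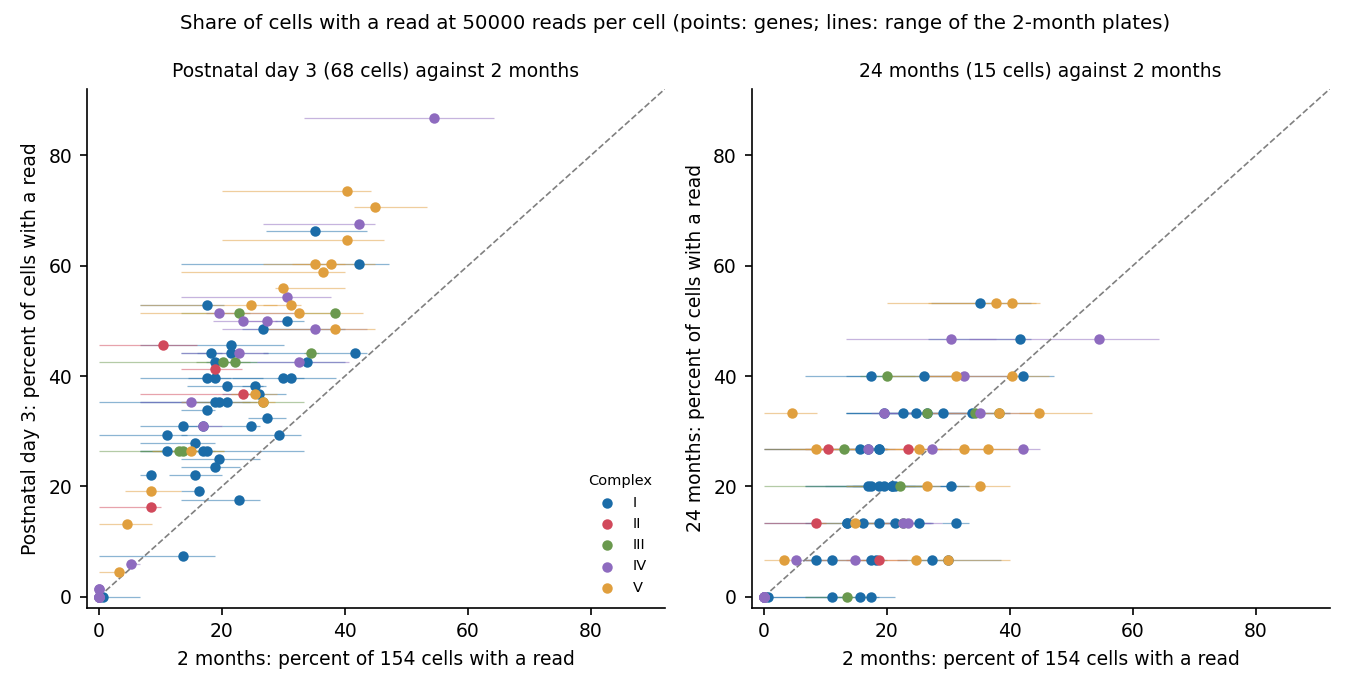
Share of cells with a read of each gene at day 3 (left, vertical axis) and at 24 months (right, vertical axis) against the share at 2 months (horizontal axes), in percent, with cells thinned to 50000 reads. Points are genes colored by complex, horizontal lines span the 3 plates of 2 months and the dashed line marks equal shares; 73 of 78 tested genes on the left lie above the whole span of their line.

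The promoters of these genes were read from RefSeq windows of the same build (GRCm38.p6), from 250 bases before to 50 after the start. Such a window was at hand for 67 of the 89 genes, as 72 windows. Factors known to act on respiratory genes are NRF1, the ETS factor GABP and YY1, so 3 short motifs were searched on both strands: GCATGCGC, the NRF1 core, CCGGAAG, the ETS motif of GABP, and AAGATGGCG, the YY1 motif. They do not contain one another. The first occurred in 13.9% of the 72 windows and 2.71% of all 32851 windows, the second in 22.2% and 8.86%, and the third in 9.72% and 1.4%. At least 1 of the 3 occurred in 27 of 72 windows (37.5%, against 12.1% of all), with 12 of 35 for complex I, 2 of 3 for complex II, 3 of 5 for complex III, 3 of 13 for complex IV and 7 of 16 for complex V. A match of letters is a description of the window and not a binding site. A part of these motifs in the level or detection of the genes at any age was not tested.

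The 100 bases before the start are shown, 5′ to 3′ on the gene's strand, for the gene of each complex most often detected at day 3 among those with a motif there, with the motif in capitals (overlapping matches on both strands run together in Ndufa11). They lie at chr17:56717662-56717761 (plus strand), chr9:50603850-50603949, chr4:116075071-116075170, chr7:30626115-30626214 and chr16:84834977-84835076 (minus strand), in the order of the lines.
Ndufa11: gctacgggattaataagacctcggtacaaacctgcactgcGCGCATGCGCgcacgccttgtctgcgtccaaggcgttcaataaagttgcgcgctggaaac
Sdhd: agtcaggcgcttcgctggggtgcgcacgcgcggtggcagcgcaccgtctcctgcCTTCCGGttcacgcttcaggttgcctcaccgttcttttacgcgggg
Uqcrh: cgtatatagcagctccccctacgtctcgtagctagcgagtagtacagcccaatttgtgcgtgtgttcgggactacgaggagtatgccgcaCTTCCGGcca
Cox6b1: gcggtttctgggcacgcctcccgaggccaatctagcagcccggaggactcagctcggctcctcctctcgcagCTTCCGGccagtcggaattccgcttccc
Atp5j: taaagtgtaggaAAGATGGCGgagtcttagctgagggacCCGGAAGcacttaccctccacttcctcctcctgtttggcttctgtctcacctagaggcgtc
Ndufa11 holds the NRF1 core, Sdhd, Uqcrh and Cox6b1 the ETS motif on the opposite strand, and Atp5j, the F6 coupling subunit of the ATP synthase, the YY1 and ETS motifs. Atp5j has a further RefSeq start; its window, of which the 100 bases before the start lie at chr16:84835626-84835725, directly before the start of the GENCODE gene, holds none of the 3 motifs, and the one shown lies inside that gene. At day 3 these 5 genes, chosen for their detection at that age, were detected in 48.5%, 45.6%, 51.5%, 51.5% and 64.7% of cells. Each was above every 2-month plate, as were 73 of the 78 subunit genes tested. The messengers of the factors themselves were seen in few cells. At day 3 and 2 months Nrf1 was seen in 8.82% and 3.9% of cells, and Gabpa in 10.3% and 4.55%. Gabpb1 was seen in 8.82% and 10.4%, and Yy1 in 5.88% and 8.44%. Nrf1 had 39.5 CPM on the day 3 plate and 0.0485, 20.9 and 82.8 CPM at 2 months, and Gabpa 19.4 CPM and 0, 12.5 and 16.1 CPM. On plates 2, 5 and 12 Nrf1 had 0, 3.27 and 0 CPM and Gabpa 0, 0 and 45 CPM. Yy1 had 328.4, 0 and 0 CPM there, and Gabpb1 0, 0 and 195.9 CPM.

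Levels moved less than detection between day 3 and 2 months. The rule for a call asked for 10 CPM or more in one age, age means 2-fold or more apart, and no overlap between the plates of both ages. By this rule 8 of 76 tested genes were higher at day 3 and 4 lower, against 28.1% and 10.1% of all 9656 genes tested. The median log2 fold was 0.07 for the subunit genes and 0.23 for all genes. The counts depended on the 2-month plates: without plate 1 they were 3 higher and 2 lower, without plate 3 15 and 4, and without plate 4 16 and 7. All genes then had 24.9% higher and 19.2% lower, 37.5% and 13.3%, and 38.7% and 13%. With every cell given equal weight 15 subunit genes were higher and 1 lower, beside 29% and 10% of all genes. The comparisons of day 3 and of 24 months with 2 months share its plates, and those against day 3 share plate 9.

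In complex I, Ndufv1, the subunit that binds NADH and FMN, had 170.8 CPM at day 3 and 23.9, 34.3 and 74 CPM at 2 months, a log2 fold of 1.93. Ndufb8, an accessory subunit of the membrane arm, had 79.1 CPM against 10.9, 37.4 and 43.2 CPM (1.35). Ndufv3, a small accessory subunit beside Ndufv1, and Ndufs4, an accessory subunit of the peripheral arm, were higher by 1.2 and 1.01. Lower at day 3 were Ndufs7, a core iron-sulfur subunit, with 71.1 CPM against 325.8, 113.01 and 91.9 CPM (-1.30), and Ndufs6, an accessory zinc-binding subunit, with 22.2 CPM against 91.3, 28.1 and 29.1 CPM (-1.12). Plate 1 was the highest plate of Ndufs7 and Ndufs6 and the lowest of Ndufb8, and without it these 3 genes lost their calls, as did Ndufs4 (0.45), Sdhd (0.71) and Cox5b (-0.36), described next. Ndufs3, a further core subunit, was lower by 0.98 and stood just past the fold limit.

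In the other complexes, Sdhd had 94.2 CPM at day 3 and 0, 37.9 and 76.3 CPM at 2 months (1.29). Cox5b, a zinc-binding subunit of complex IV, had 32.5 CPM against 192.5, 32.8 and 50.9 CPM (-1.48), so that plate 3 stood next to day 3 and plate 1 far above. Atp5a1 had 473.1 CPM against 86.5, 216.02 and 222.9 CPM, a log2 fold of 1.43, with day 3 above all 3 plates. Atp5b, the catalytic beta subunit, had 528.7 CPM against 102.1, 334.9 and 388.9 CPM, under the 2-fold limit. Atp5s, a factor named with the ATP synthase but not a subunit of its core, had 13.1 CPM against 0, 6.5 and 11.8 CPM and was called higher, though no longer without plate 1. No complex III gene was called.

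**Figure D4:**
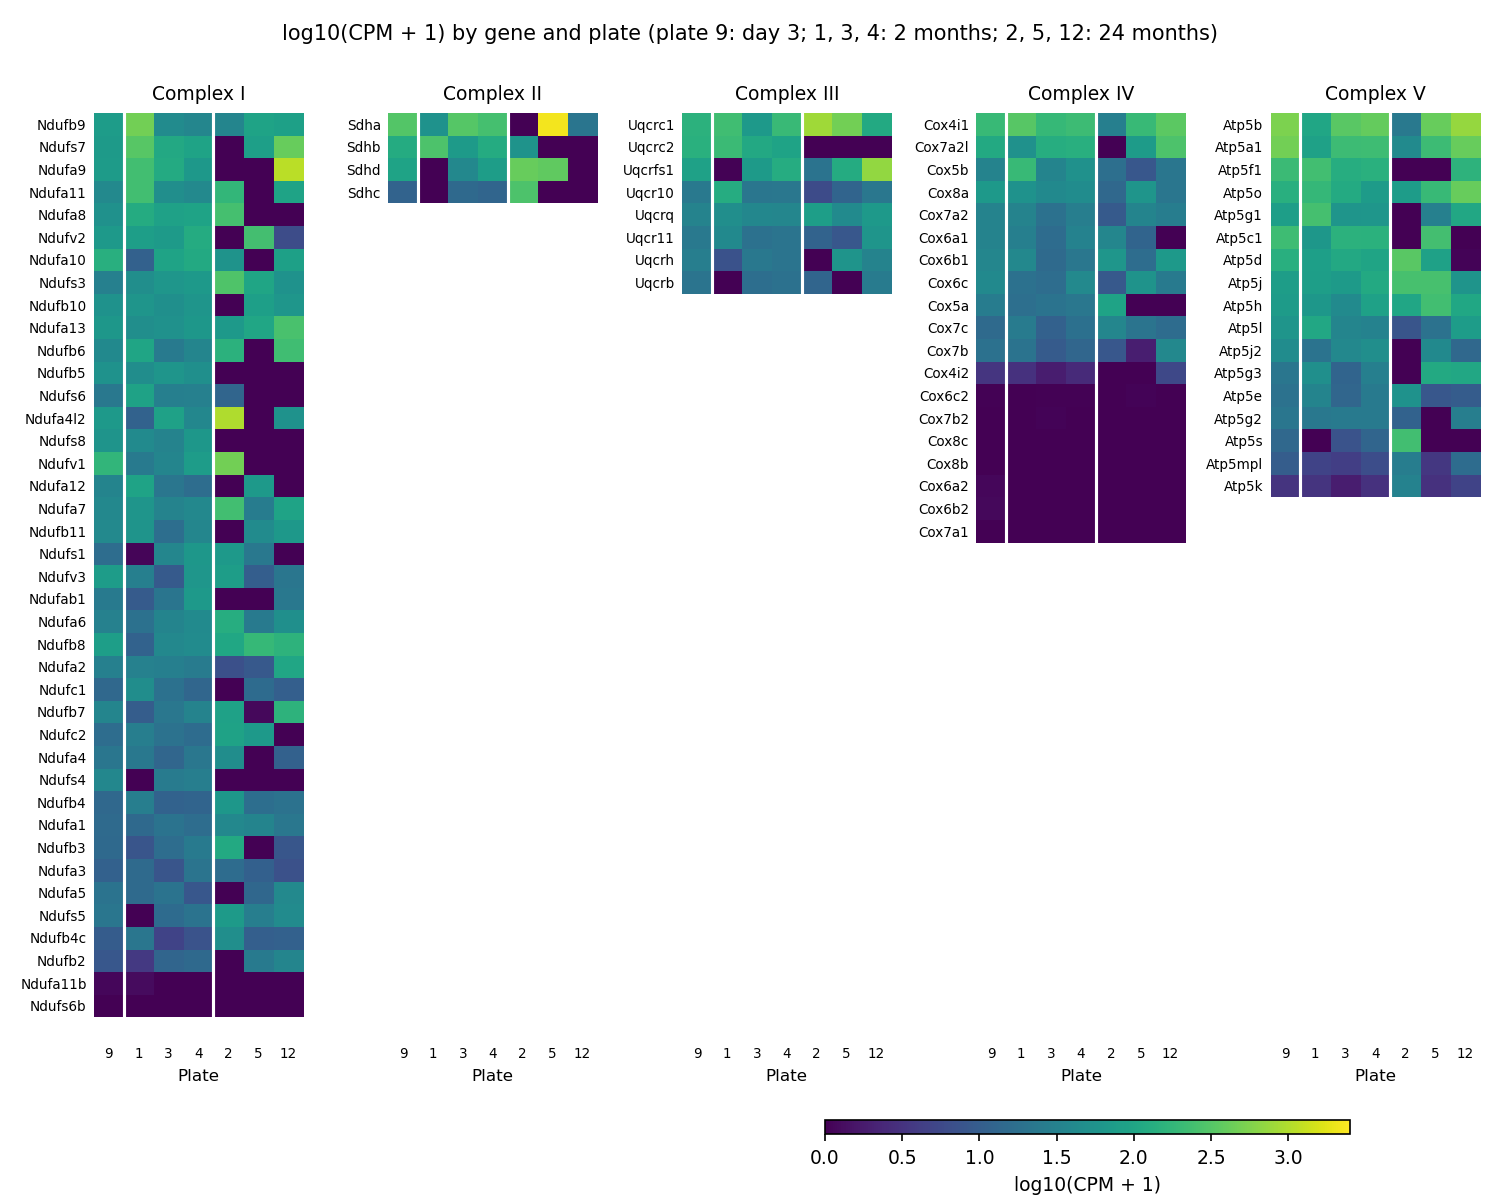
Level of each of the 89 genes but 1 on each plate as log10(CPM + 1) (color scale), with genes in rows by complex, ordered by their 2-month mean, and plates in columns, parted by white lines into day 3, 2 months and 24 months. Plates 9, 3 and 4 are filled evenly, whereas on plates 2, 5 and 12 single genes without a read stand beside genes of high level.

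At 24 months single genes were uneven. On plates 2, 5 and 12 there were 33, 32 and 26 of the 89 genes without a read, against 5 on plate 9, 7 on each of plates 3 and 4, and 14 on plate 1. The median gene with reads was found in 2 of the 5 cells of each 24-month plate, and 52, 52 and 58 genes had over 50% of their reads in 1 cell. By the rule, 4 of 79 tested genes were higher at 24 than at 2 months and 6 lower, against 1.56% and 29.7% of all 8804 genes tested. The median log2 fold was 0.32 for the subunit genes and -1.56 for all genes, and 58.2% of the subunit genes lay above 0 against 36.2% of all genes. Setting genes without a read at 24 months to the level of 3 reads left the median of the subunit genes at 0.32. The distance between the 2 medians depended on the cells and genes let in. With cells of at least 500 genes, 65 of them at 24 months, the medians were 0.61 for the subunit genes and -0.11 for all genes. With no minimum CPM they were 0.18 and -0.17. Without plate 2 the counts were 9 higher and 12 lower, without plate 5 10 and 13, and without plate 12 9 and 18. All genes then had 4.26% higher and 38.9% lower, 4.3% and 36.9%, and 3.97% and 37.2%. With TMM factors 2 subunit genes were higher and 7 lower, beside 1.14% and 30.9% of all genes. The median of the subunit genes was then -0.01.

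The genes called higher were Ndufb8, Ndufs5, Ndufa13 and Atp5h. Ndufb8 (chr19:44548572-44555440, minus strand, GRCm38) had 106.6, 190.2 and 156.2 CPM at 24 months against 10.9, 37.4 and 43.2 CPM at 2 months, a log2 fold of 2.27, with reads in 2, 3 and 1 of 5 cells per plate. It was called higher at day 3 as well, so that 2 months was its lowest age. Ndufs5, an accessory subunit of the intermembrane side, had 70.1, 27.9 and 43.3 CPM against 0, 14.4 and 18.5 CPM (2.01). Ndufa13, an accessory subunit also known as GRIM-19, had 67.4, 101.03 and 262.9 CPM against 47.5, 50.9 and 62.6 CPM (1.41). Atp5h, the d subunit of the ATP synthase stalk, had 100.9, 233.6 and 104.5 CPM against 61.3, 41.5 and 87.3 CPM (1.19). The last 2 were no longer called with TMM factors, at 1.07 and 0.89, and Ndufs5, Ndufa13 and Atp5h were not called with equal weight for each cell, at 1.38, 1.38 and 1.32. With cells of at least 500 genes, Ndufa13 (1.12) and Atp5h (0.34) lost their calls.

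Of the genes called lower at 24 months, 3 had no read in any of the 15 cells. Uqcrc2, a core subunit of complex III (chr7:120635176-120659524, plus strand, GRCm38), had 207.7, 112.4 and 92 CPM at 2 months and 142.2 CPM at day 3. Ndufb5, an accessory subunit of the membrane arm, had 45.6, 59 and 48 CPM at 2 months and 53.4 CPM at day 3. Ndufs8, the core subunit that carries 2 iron-sulfur clusters, had 41.5, 31.7 and 61.3 CPM at 2 months and 56.5 CPM at day 3. Ndufs4 had no read either, but also none on plate 1. At 50000 reads these 4 genes were seen in 13.6%, 17.5%, 15.6% and 11% of 2-month cells, and 0 of 15 cells allows a share of up to 20%, which covers those shares. With all reads, Ndufb5 was seen in 23.4% of 2-month cells (16.9 to 30.9), which is above that limit. With cells of at least 500 genes, which made 65 cells at 24 months, Uqcrc2 was 0.87 higher than at 2 months on the log2 scale, and Ndufs8 (-0.93) was no longer called.

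The remaining calls rested on low but nonzero values or on single plates. Cox5b had 16.3, 7.37 and 20.7 CPM at 24 months against 192.5, 32.8 and 50.9 CPM (-2.56). Ndufs6 had 12, 0 and 0 CPM against 91.3, 28.1 and 29.1 CPM (-3.34). Sdhb, the iron-sulfur subunit of complex II, had 55, 0 and 0 CPM against 283.6, 69.2 and 122.3 CPM (-3.04), and 1 of 15 cells held all its reads. With cells of at least 500 genes Sdhb was 0.13 higher, and Cox5b (-0.15) and Ndufs6 (-1.68) were no longer called.

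The other subunits of complex II were high on 1 or 2 plates of 24 months and absent from another. Sdha, the flavoprotein that oxidizes succinate, had 0, 2187 and 19.9 CPM on plates 2, 5 and 12, against 306.5 CPM at day 3 and 53.6, 322.7 and 247.1 CPM at 2 months. On plate 5 it was in 3 of 5 cells and made up 31.8% of all subunit reads. Sdhd had 400.8, 370.3 and 0 CPM, and Sdhc, the other membrane anchor, 278.1, 0 and 0 CPM at 24 months against 0, 13.7 and 12 CPM at 2 months. None of the 3 was called, since the plates overlapped.

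Core subunits of the other complexes also differed widely between the 24-month plates. Ndufv1 had 478.4, 0 and 0 CPM at 24 months, Ndufv2, its iron-sulfur partner, 0, 239.9 and 5.14 CPM, and Ndufs1 66.9, 22.1 and 0 CPM. Ndufs7 had 0, 81.1 and 412.0 CPM and was found in 4 of 5 cells of plate 12. Uqcrfs1, the Rieske iron-sulfur protein of complex III, had 18.9, 122.9 and 712.2 CPM against 0.0485, 69.4 and 127.1 CPM at 2 months. Atp5a1 had 41.6, 210.5 and 404.7 CPM, and Atp5b 22.6, 404.9 and 729.2 CPM. For each of these 7 genes the plates of 24 and 2 months overlapped.

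Detection gave few differences between 24 and 2 months. Of 77 genes tested, 3 were found in a larger share of cells on every 24-month plate and 7 in a smaller one, beside 4.62% and 18.7% of all genes. The 3 were Atp5mpl, Atp5o and Ndufv3, and the 7 included Ndufs6, Ndufv2 and Atp5f1, and also Uqcrc2, Ndufb5 and Ndufs8, whose 0 of 15 cells does not exclude the 2-month share. These counts rested on single plates: without plate 1 they were 5 and 11, without plate 4 8 and 7, without plate 2 6 and 11, without plate 5 9 and 13, and without plate 12 13 and 11. All genes then had 4.99% above and 31% below, 5.39% and 20.2%, 8.93% and 21.9%, 10% and 19%, and 8.96% and 19.9%. Atp5o, the stalk subunit that confers oligomycin sensitivity, was in 2 of 5 cells on each 24-month plate, which is 40%, against 26.7%, 32.9% and 30.4% at 2 months. Against day 3, 1 of 78 genes, Atp5mpl, was found in a larger share of cells on every 24-month plate and 43 in a smaller one, beside 3.32% and 54% of all genes. Without plates 2, 5 and 12 in turn, 2, 4 and 7 were above, beside 6.93%, 7.52% and 6.8% of all genes. The 43 comprised 19 of 39 tested genes of complex I, 2 of 4 of complex II, 5 of 8 of complex III, 7 of 11 of complex IV and 10 of 16 of complex V.

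In level, 8 of 79 tested genes were higher at 24 months than at day 3 and 13 lower, against 2.62% and 53.7% of all 9062 genes tested, with medians of 0.28 and -1.94 on the log2 scale. Within batch 3 the counts were 14 and 18, beside 5.58% and 61.9% of all genes, and the medians 0.48 and -3.51. With cells of at least 500 genes the medians were 0.56 and -0.23. With TMM factors 5 were higher and 15 lower, and with equal weight for each cell 5 and 14. These 2 settings called 2.39% and 54.6%, and 2.71% and 53.5%, of all genes. The largest difference upward among called genes was that of Ndufs3, with 292.4, 97.9 and 52.8 CPM against 29.2 CPM (2.30). Lower were Atp5f1, the b subunit of the ATP synthase stalk (0, 0 and 159.1 against 207.1 CPM), Ndufab1, the mitochondrial acyl carrier protein (0, 0 and 21.8 against 24.5 CPM), and Ndufa10, an accessory subunit (55, 0 and 83.7 against 139.9 CPM), beside Uqcrc2, Ndufs8, Ndufb5, Ndufs4, Sdhb and Ndufs6. Without plate 2 the counts were 9 and 22, without plate 12 11 and 25, and without plate 5 they were those of batch 3. All genes had 5.45% higher and 63.7% lower without plate 2, and 5.48% and 63% without plate 12.

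Per length of transcript, the genes of highest level over the 3 ages were Ndufa4l2 and Ndufs7 in complex I, Sdha and Sdhd in complex II, Uqcrc1 and Uqcrfs1 in complex III, Cox4i1 and Cox7a2l in complex IV, and Atp5b and Atp5o in complex V. These ranks use the mean of the ages and the complex given by the symbol stem. Those of Ndufa4l2 (73.3, 48.3 and 374.9 CPM per kilobase at day 3, 2 and 24 months) and Sdhd (76.5, 30.9 and 208.8) rest on few cells of 24 months. At day 3 Ndufv3 (117.5) and Ndufv1 (111.8) were above Ndufa4l2, and at 2 months Ndufb9 (260.9) was. Sdhb (108.1 and 138.7) was above Sdhd and also above Sdha (105.7 and 71.7) at both ages. In complex III, Uqcr10 (128.8) was above Uqcrc1 and Uqcrfs1 (48.1) at 2 months. Cox7a2l (105.6 and 96.9) was below Cox8a (119.2) at day 3 and below Cox5b (123.6) at 2 months. Atp5o (165.2) was below Atp5c1 (188.5) and Atp5a1 (183.96) at day 3. Cox4i1 led all of them with a mean of 278.4 CPM per kilobase, at 259.3, 323.9 and 251.9 CPM per kilobase at day 3, 2 and 24 months. Atp5b had 275.9, 143.7 and 201.2, and Uqcrc1, the other core subunit of complex III, 91.1, 99.6 and 284.2 CPM per kilobase. On plates 2, 5 and 12 Uqcrc1 had 825.4, 468.0 and 115.95 CPM, against 225.5, 68.6 and 199.7 CPM at 2 months, so its 24-month plates overlapped those of 2 months.

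Where a subunit has several forms, the ubiquitous one was read almost alone in complex IV. Cox4i1 took 98.8%, 99.4% and 99.2% of the reads of Cox4i1 and Cox4i2 at day 3, 2 and 24 months, and Cox4i2, the form induced by low oxygen, did not exceed 4.43 CPM on any plate. The forms typical of heart and skeletal muscle were at or near 0: Cox7a1 and Cox8b had 0 reads in all cells kept, which allows a share of up to 1.27% of cells, and Cox6a2 had 11 reads at day 3 and 0 later. The forms known from testis were as rare, with 13 reads of Cox6b2 at day 3 and 1 read of Cox8c at 2 months. Their partners Cox6a1, Cox6b1, Cox7a2 and Cox8a had 32.5, 35.2, 32.2 and 65.5 CPM at day 3. Cox8a was lower at 24 months than at day 3, at 13, 59.1 and 20.7 CPM. Cox7a2l, a relative of Cox7a2 that links complexes III and IV, took 78.3%, 80.5% and 84.1% of CPM of the Cox7a set, a share that its longer transcript raises. These shares varied little with age.

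Ndufa4l2 and the ATP synthase c subunit had mixed forms. Ndufa4l2, a target of the hypoxia factor HIF-1 known to restrain respiration, had 68.4 CPM at day 3, 10.9, 88.6 and 36 CPM at 2 months, and 997.3, 0 and 53.2 CPM at 24 months. It was above Ndufa4, its relative now counted with complex IV, at day 3 (20.3 CPM) and at 2 months (21.7, 12.2 and 21.4 CPM) on all plates but plate 1. Its longer transcript raises this lead. Per kilobase Ndufa4l2 had 73.3 and 48.3 CPM at day 3 and 2 months, against 44 and 40.1 CPM for Ndufa4. The 997.3 CPM came from 2 of 5 cells on plate 2, of which 1 held 65.9%, and no age was called different. At day 3 it was seen in 45.6% of cells (33.5 to 58.1) against 6.67%, 30% and 15.9% at 2 months. Atp5g1, Atp5g2 and Atp5g3 encode the same mature c subunit of the proton ring. Per kilobase of transcript Atp5g1 had 30.2, 45.8 and 17.2 CPM at day 3, 2 and 24 months, Atp5g2 35.7, 39.5 and 21.8 CPM, and Atp5g3 28.6, 41 and 103.8 CPM. In CPM without regard to length, Atp5g1 made up 66.1% and 70% of the set at the first 2 ages. It was seen in 60.3% of day 3 cells, against 35.3% for Atp5g2 and 26.5% for Atp5g3. The 3 genes were thus close at these ages only per kilobase. This rests on the transcript length taken, 2676 bases for Atp5g1 against 718 for Atp5g3. Atp5g3 was the highest at 24 months. That value rested on few cells, since Atp5g3 at 24 months was read in 1 cell each of plates 5 and 12.

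Genes that serve these complexes were also compared between 24 and 2 months, where 1.56% of all genes were called higher. None of the assembly, citric acid cycle or electron carrier genes tested was called higher, which lies near that share and sets no list apart. Of 7 tested complex I assembly factors 0 were higher and 4 lower than at 2 months, with a median log2 fold of -3.53, and of 22 assembly factors of complexes II to V 0 were higher and 10 lower, with a median of -3.16. Of 13 citric acid cycle genes 0 were higher and 2 lower, with a median of -1.08. Of 8 tested genes for cytochrome c, cytochrome c1 and ubiquinone synthesis, 0 were higher and 3 lower (-1.82), among them Cycs, cytochrome c itself, with 0, 25.7 and 6.74 CPM against 135.4, 26.7 and 40 CPM. Slc25a3, the phosphate carrier, had 83.7, 17.1 and 0.177 CPM against 196.5, 327.5 and 420.2 CPM and was called lower, whereas Slc25a4, an ATP and ADP exchanger, had 428.0, 100.7 and 1121 CPM against 587.2, 445.1 and 589.6 CPM and was not. These medians stand beside 0.32 for the subunit genes and -1.56 for all genes, and the counts beside 1.56% of all genes called higher and 29.7% lower. With cells of at least 500 genes the median of all genes was -0.11, and those of the lists are not given here. At 24 months 7 of 14 listed complex I assembly factors and 13 of 29 of the others had no read. So had 4 of 13 citric acid cycle genes and 5 of 10 carrier genes, beside 12 of the 89 subunit genes. For genes without a read the size of the fold depends on the 1 CPM added.

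At day 3, of 13 citric acid cycle genes, 5 were higher than at 2 months and 1 lower, including Idh3b, a subunit of isocitrate dehydrogenase (207.4 against 0, 22 and 68.2 CPM), and Ogdh, of the oxoglutarate dehydrogenase complex (281.2 against 64.6, 102.6 and 148.1 CPM). Cyc1, the nuclear cytochrome c1 of complex III that the naming rule leaves out, was called higher, with a log2 fold of 1.21 over 0, 66.7 and 87.1 CPM at 2 months. Among assembly factors 3 of 9 for complex I were higher and 1 lower, and 4 of 23 for the others were higher and 2 lower. These counts stand beside 28.1% and 10.1% of all genes.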

How the data were processed

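The table holds expected counts per gene, made by the authors with RSEM 1.2.21 after demultiplexing with bcl2fastq 2.18 and alignment with STAR 2.4 to GRCm38.p6, per the submitters' processing notes; the annotation release is not given in the sources used here. Values were rounded to whole numbers (14.8% of those above 0 were not whole), and 92 spike-in rows stayed out of totals. Plate, well, age and index sequences tied columns to samples; 1 column, tied to none, was left out. Second rows of a symbol were left out; those of Uqcrc1, Ndufs3 and Atp5a1 repeat the first row in all but 8, 1 and 6 of 670 wells, and that of Atp5o holds 0 reads. Coordinates and gene types came from GENCODE for GRCm38, by symbol.

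CPM, folds, the calling rule, thinning and exact binomial intervals (level 95%, 3 counts for a 0) are as described with the results. Kept cells were 237 of 670 wells; plates held 10719365 to 75456569 gene reads. Reads carry no molecular identifiers, so repeated reads of 1 molecule count as many. The calling rule was also run on simulated cells of the real plate sizes as a check of the code, and no result given here rests on it. The genes and lists were chosen with earlier results of these data known. Genes named are the fixed isoform sets and catalytic subunits, up to 10 called genes of largest fold per comparison and the 2 of highest level per transcript length in each complex; others are said to be chosen later or illustrate a count, and 1 gene that the rule names is counted but not reported here. TMM factors came from edgeR 4.0.16 (R 4.3.3); all else was computed in Python 3.11.15 with pandas 2.3.3, numpy 2.4.6 and scipy 1.17.1, and drawn with matplotlib 3.10.9.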

Additional observations from a re-analysis of the deposited data

Results flagged for a closer look

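Reads of the subunit genes also occurred in wells left out of every comparison. Of the 433 wells that did not meet the limits on genes, reads and mitochondrial share, 39.5% (exact 95% binomial interval 34.9 to 44.3) held at least 1 read of the 89 genes. The median of the 433 wells held 0 reads of them. Only the alternatives with looser limits on a cell use some of these wells.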

How the results depend on the processing

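No paired analysis was possible because replicate numbers only name wells in accession order; the batch label ties plate 9 to plates 2 and 12 alone, and values within that batch stand with the results. Leaving out 1 plate in turn gave 4 to 10 genes higher and 6 to 18 lower for 24 against 2 months, 3 to 16 and 2 to 7 for day 3 against 2 months, and 9 to 14 and 18 to 25 for 24 months against day 3; in share of cells it gave 3 to 13 above and 7 to 13 below for the first, 0 to 2 below for the second and 2 to 7 above for the third. TMM factors gave 2 genes higher and a summed difference of 0.23 for 24 against 2 months, a summed difference of -0.03 for day 3 against 2 months, and 5 genes higher and a summed difference of 0.25 for 24 months against day 3. Equal weight for each cell gave summed differences of 0.85 and 0.58 for the first 2 comparisons, 15 higher and 1 lower for day 3 against 2 months, and 5 higher for 24 months against day 3. All genes then had 29% higher and 10% lower in the second comparison and 2.71% higher in the third. Without the cell richest in these reads on each plate, a choice made after seeing the data, 10 genes were lower and the summed difference was 0.39 for 24 against 2 months, 1 gene was lower for day 3 against 2 months, and 3 were higher with a summed difference of 0.11 for 24 months against day 3. Plates of batch 3 gave 14 higher for 24 months against day 3, beside 5.58% of all genes. Without the richest cells, 31.2% of all genes were lower in the first comparison, 9.8% lower in the second and 2.08% higher in the third. With cells of at least 500 genes, 8 were higher in the first comparison, 2 lower in the second and 5 lower in the third; Uqcrc2 reversed to 0.87 and Sdhb to 0.13 against 2 months, and Uqcrc2, Sdhb and Ndufab1 to 0.39, 0.28 and 0.54 against day 3. Among all genes, cells of at least 500 genes gave 3.27% higher in the first comparison, 11.2% lower in the second and 37.3% lower in the third. Cells of 1000 to 1700 genes left 9 cells at day 3 and gave 31 higher, 10 lower and a summed difference of 0.98 against 2 months, with Ndufs6 at 0.17, and 5 higher, 25 lower and -0.41 for 24 months against day 3. All genes then had 24.3% higher and 19.8% lower in the second comparison, and 5.47% and 37.5% in the third. At least 2000 genes and 200000 reads left 1 cell at 24 months: 23 higher, 42 lower and a summed difference of 0.00 against 2 months, with Ndufs6, Sdhb, Cox5b, Ndufs5 and Ndufa13 at 1.30, 1.91, 0.00, -4.23 and -5.33; 21 higher, 40 lower and -0.21 against day 3, with Sdhb, Ndufs3, Ndufs6 and Ndufa10 at 1.5, -5.03, 1.81 and 1.29; and 4 higher for day 3 against 2 months, with Ndufs4 at -0.34. This filter gave 13.6% of all genes higher and 70% lower in the first comparison, 12.7% and 81% in the third, and 29.8% higher in the second. Thinning to 200000 reads gave medians of 36 genes per cell at day 3 and 23 at 2 months, 0 genes above and 12 below in share of cells for 24 against 2 months, and 0 above for 24 months against day 3. All genes then had 3.37% above and 22.5% below in the first comparison, and 3.07% above in the third. With at least 2 reads required, 5 genes were above for 24 against 2 months, 2 below for day 3 against 2 months and 3 above for 24 months against day 3. The shares of all genes were 5.99%, 6.37% and 3.95%. Other limits on CPM, unrounded values, second rows and the pseudogenes moved no count past 1.5 times. For these results the cause was not tested, except that the strictest filters leave few cells. The 15 cells of 24 months limit every statement on single genes at that age.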

Other observations

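Genes of mitochondrial transcription and antioxidant defence were read beside the complexes. Ppargc1a and Ppargc1b, coactivators of mitochondrial biogenesis, had 0 reads at day 3 and at 24 months and at most 1.93 and 0.79 CPM on a 2-month plate. Of 11 tested regulators 4 were higher at day 3 than at 2 months and 0 lower, beside 28.1% and 10.1% of all genes, among them Esrra, a nuclear receptor that acts with them (13.5 against 0.0485, 11 and 6.59 CPM). Sod1, the cytosolic superoxide dismutase, had 188.8 CPM at day 3, a mean of 181.8 CPM over the 2-month plates and 405.3, 479.8 and 1593 CPM at 24 months. Of the 9 genes in its list Sod1 alone was called higher at 24 than at 2 months and 3 were called lower, beside 1.56% and 29.7% of all genes. The 3 were Sod2, Txn2 and Cat, and Txn2 and Cat had no read at 24 months. Sod2, its mitochondrial counterpart, had 0.427, 0.373 and 0 CPM at 24 months against 3.25, 21.2 and 108.7 CPM at 2 months and was called lower. Sod1 was seen in 86.7% of the cells at 24 months and 78.6% at 2 months. Ucp1, the uncoupling protein of brown fat, had 0 reads on every plate. Atpif1, the inhibitor of the ATP synthase, had 53.4 CPM at day 3, 46.3, 14.1 and 25.3 CPM at 2 months and 51.5, 71.8 and 36.7 CPM at 24 months, so that day 3 was above every 2-month plate, with means less than 2-fold apart, and within the range of 24 months.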
